A study of Mus musculus with 32 samples.

Results

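The gene module described here holds 37 mouse genes of protein folding and quality control in the endoplasmic reticulum (ER), chosen by name from the ATF6 and XBP1 arms of the unfolded protein response together with folding enzymes, ER-associated degradation (ERAD) and the translocon. All 37 were found among the 23517 genes of the deposited count table. They were read in Lgr5-EGFP+ cells sorted from colonoids, which are epithelial organoids grown in L-WRN medium from proximal colon crypts of mice carrying Lgr5-EGFP-IRES-CreERT2, a line in which the Lgr5 locus drives EGFP and CreERT2 in stem and progenitor cells. Each of 8 mice gave colonoids left untreated and colonoids kept for 4 days with 250 nM bethanechol (Bch), a muscarinic receptor agonist, so that the question asked is what muscarinic activation did to these genes in progenitor cells. Mice 1 to 4 were labelled male, with sorted Lgr5+ cells as the source and the RNeasy Plus Micro kit for RNA. Mice 7 to 10 had no sex in the labels and were taken as female from the counts of mice in the series, with colonic organoids as the source and the RNeasy Mini kit. Sex, source and kit therefore cannot be told apart between the sets of mice, and no age was given.

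Each mouse and treatment was sequenced as 2 technical replicates, which were added to give 16 sums of 557512 to 4050342 unique molecular identifiers (UMIs), the tags that count cDNA molecules. Untreated mouse 3 was the shallowest sum and untreated mouse 1 held 13114 sorted cells where most held 3000. Levels are given as CPM, a gene's UMIs scaled to a common library total, after TMM normalization. Because the primers were oligo-dT with UMIs, a transcript was counted from its 3′ end whatever its length, and levels of different genes were set side by side without scaling to length. Once the ratio between technical replicates of each gene was allowed for, their counts differed by less than independent sampling gives, with a residual chi-square per degree of freedom of 0.533 over 8861 genes, so they were counted as 1 sample and some molecules may have been counted in both. Lgr5 was at 12.7 to 39.1 CPM in the 16 sums, and the summed level of 5 fibroblast and endothelial markers stayed between 0.504 and 8.16 CPM. The 7 markers of plasma and other immune cells summed to 63.0 to 122 CPM, nearly all of it from Cd14, the 1 gene of the list that passed the filter on low counts, and the pan-leukocyte gene Ptprc was at 0 in the sums of all mice but mouse 2.

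Secreted and membrane proteins enter the ER through the Sec61 channel, fold with the help of the HSP70 chaperone BiP (Hspa5), lectin chaperones and protein disulfide isomerases, and are sent back to the cytosol for degradation when folding fails. Sensors in the ER membrane watch over the load of unfolded proteins: IRE1, which splices Xbp1 mRNA, ATF6, which is cut to release a transcription factor, and PERK (Eif2ak3), which slows translation and raises ATF4. In the gut this machinery is best known for secretory cells, above all the mucus-producing goblet cells, which have their own IRE1 (Ern2), and strong signalling through PERK is known to drive intestinal stem cells out of the stem cell state.

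XBP1 and ATF6 are known to act through the ER stress response element (ERSE), in which CCAAT and CCACG are separated by 9 bases, and through ERSE-II, in which ATTGG and CCACG are separated by 1 base. Both were searched on both strands of the 300 bases from 250 before to 50 after the start of each gene in RefSeq (GRCm38.p6), where 30 of the 37 genes matched by symbol. The genes Ssr2, Atf6, Ern2, Hyou1, Derl1, Manf and Sec61a1 had no entry. ERSE was present in 9 of the 30 promoters (30.0%), those of Calr, Canx, Creld2, Derl3, Dnajc3, Hsp90b1, Hspa5, Pdia6 and Syvn1, and in 0.137% of the promoters of 27025 genes. ERSE-II was present in Dnajb11 and Herpud1, against 0.0444% of all. CCAAT alone was in 24 of the 30 and in 41.1% of all, CCACG alone in 24 and in 35.5%, and the core of the UPRE, TGACG followed by TGG, in 0 and in 0.714%. A match describes letters in this window and is not a measurement of binding. The 12 elements of the 11 holders are printed on the strand of the gene because the Bch differences of the holders are set beside those of the other members later, with the CCAAT (or ATTGG) and CCACG (or CGTGG) parts of the element in capitals and 5 flanking bases on each side. On the plus strand of GRCm38.p6 they lie at chr2:34772020-34772048 (Hspa5), chr15:88819515-88819543 (Creld2), chr12:17266486-17266514 (Pdia6), chr14:118937822-118937850 (Dnajc3), chr19:6046527-6046555 (Syvn1), chr10:75893237-75893265 (Derl3), chr8:94386372-94386392 (Herpud1) and chr16:22857847-22857867 (Dnajb11). On the minus strand they lie at chr11:50325795-50325823 (Canx), chr8:84847070-84847098 (Calr) and chr10:86705633-86705661 and chr10:86705528-86705556 (Hsp90b1).
Hspa5: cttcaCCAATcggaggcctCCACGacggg
Creld2: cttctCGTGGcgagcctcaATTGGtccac
Canx: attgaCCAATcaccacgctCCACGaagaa
Calr: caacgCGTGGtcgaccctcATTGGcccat
Hsp90b1, distal: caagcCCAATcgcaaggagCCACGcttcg
Hsp90b1, proximal: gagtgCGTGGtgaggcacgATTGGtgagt
Pdia6: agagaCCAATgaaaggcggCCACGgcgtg
Dnajc3: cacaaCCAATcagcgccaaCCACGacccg
Syvn1: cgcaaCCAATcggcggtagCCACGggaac
Derl3: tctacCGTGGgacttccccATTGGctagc
Herpud1: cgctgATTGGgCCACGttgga
Dnajb11: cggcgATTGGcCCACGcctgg
In Creld2, Calr, Derl3 and the proximal site of Hsp90b1 the element runs on the opposite strand and so reads CGTGG first and ATTGG last. Counted from the RefSeq start, the middle of the element lay at base -56 in Hspa5, -117 in Creld2, -136 in Canx, -153 in Calr, -203 and -98 in Hsp90b1, -89 in Pdia6, -96 in Dnajc3, -35 in Syvn1, -147 in Derl3 and -47 in Herpud1. In Dnajb11 alone it lay after the start, at base 12.

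The module held between 0.490% and 0.702% of all UMIs of a sum. Its levels spanned from 1.08 CPM for Derl3 to 702 CPM for Pdia3, as means over the 16 sums, and Pdia3 was number 241 of all 23517 genes in that order. The disulfide isomerase Pdia3, the small Sec61 channel subunit Sec61b and Ssr2, of the translocon-associated protein complex, led the list. Pdia3 was above Sec61b in 12 of 16 sums and Sec61b above Ssr2 in 6 of 16, so the order of these neighbours was not fixed, whereas Ssr2 was above Manf, the next gene, in 16 of 16. After Manf, BiP (Hspa5) followed at 357 CPM, and its nucleotide exchange factor Hyou1 was at 13.3 CPM. Derl3 held 0 to 6 UMIs a sum and Ern1 0 to 8. Whether strand was used in counting is not given in the sources used here, and Hsp90b1, Pdia3, Syvn1, Derl2, Sec61a1, Eif2ak3 and Manf overlap a gene on the opposite strand, while Manf, Atf6 and Eif2ak3 overlap a gene on their own strand.

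**Figure D1:**
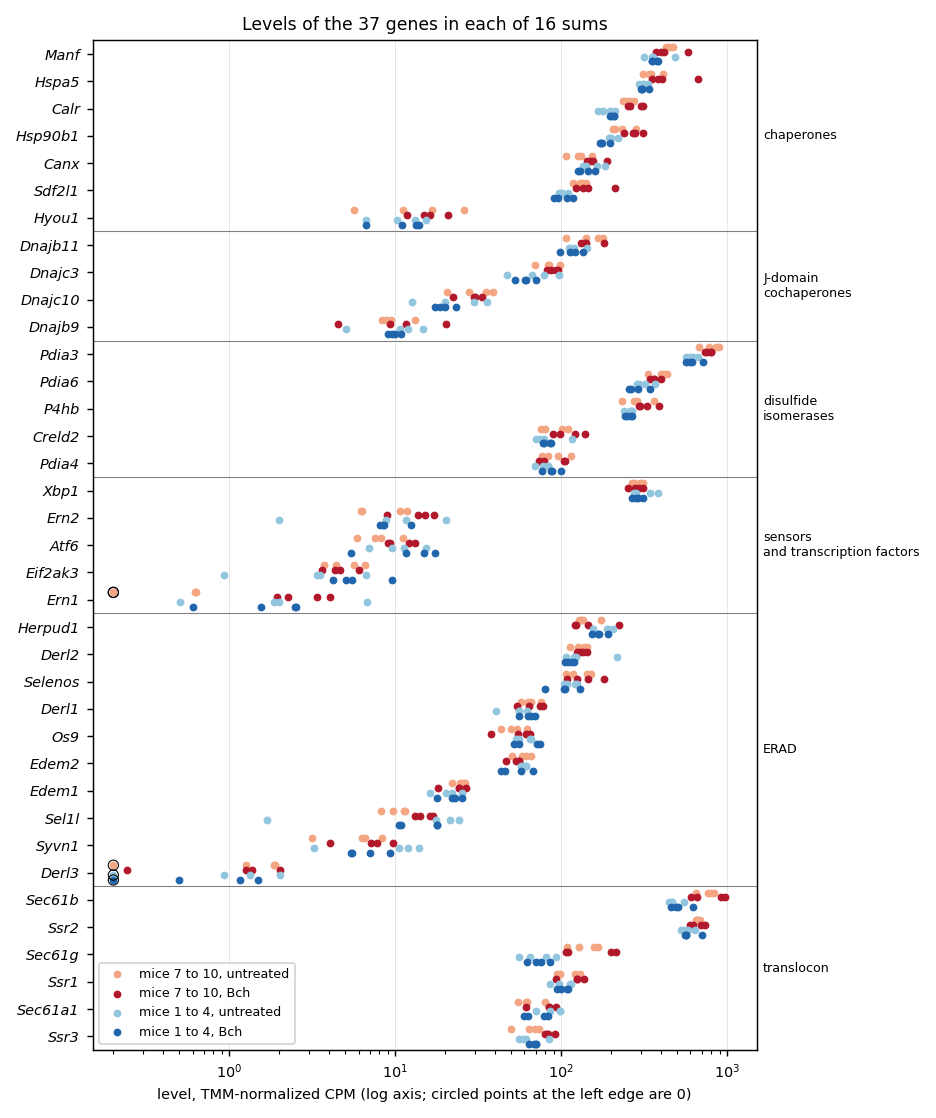
Level of each of the 37 genes (rows, grouped by role) in each of 16 sums, in TMM-normalized CPM on a log axis, with a point per mouse coloured by set and treatment and zeros circled at the left edge. Chaperones, isomerases and the translocon lie mostly above 50 CPM, the sensors other than Xbp1 lie below 25 CPM, and Hspa5 in Bch-treated mouse 7 stands to the right of the other sums.

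Among the sensors, Xbp1, the transcription factor whose mRNA IRE1 splices, was the only abundant gene. In mice 7, 8, 9 and 10 its level was 312, 265, 275 and 297 CPM untreated and 309, 251, 295 and 278 CPM with Bch. In mice 1, 2, 3 and 4 it was 280.3, 341, 385 and 272 CPM untreated and 291, 311, 282 and 265 CPM with Bch. The 4 groups overlapped, and the highest sum was untreated mouse 3. The counts do not tell spliced from unspliced Xbp1, so the activity of IRE1 was not measured.

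IRE1 itself was hardly detected. Ern1, the form found in most tissues, had 0, 1, 0 and 2 UMIs in untreated mice 7, 8, 9 and 10 and 4, 8, 5 and 8 UMIs with Bch, and a count of 0 allows up to 1.76 CPM in mouse 7 and up to 1.51 CPM in mouse 9, for counting error only. These limits take all UMIs of a sum as independent and would be higher if molecules were counted in both technical replicates. The corresponding levels were 0, 0.630, 0 and 0.617 CPM untreated and 4.02, 1.93, 2.27 and 3.38 CPM with Bch, so the Bch-treated sums lay above all untreated sums of the same set. In mice 1, 2, 3 and 4 Ern1 had 4, 3, 4 and 1 UMIs untreated and 1, 4, 5 and 5 with Bch, and these groups overlapped. Ern1 did not pass the filter on low counts and was not tested, and no fold change is given because the untreated sums of mice 7 to 10 hold at most 2 UMIs each.

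Ern2, the IRE1 of mucus-secreting epithelium, was at 6.28, 10.7, 11.7 and 6.17 CPM in untreated mice 7, 8, 9 and 10 and at 17.1, 15.2, 13.6 and 8.87 CPM with Bch, higher with Bch in 4 of 4 mice although the groups overlapped. In mice 1, 2, 3 and 4 it was at 8.83, 1.99, 20.3 and 11.6 CPM untreated and 8.42, 8.11, 8.51 and 12.4 CPM with Bch, without a shared direction. Atf6 was at 8.16, 7.56, 11.2 and 5.86 CPM untreated and 13.1, 12.0, 9.07 and 9.29 CPM with Bch in mice 7 to 10, in that order of mice, and at 6.97, 11.3, 15.2 and 9.58 and 5.41, 17.4, 11.5 and 14.9 CPM in mice 1 to 4. Mouse 9 alone was lower with Bch in the first set, and mice 1 and 3 were lower in the second. Eif2ak3 (PERK) was at 4.39, 5.67, 6.61 and 3.70 CPM untreated and 6.04, 4.33, 3.63 and 4.65 CPM with Bch in mice 7 to 10, and at 0.930, 6.63, 3.39 and 3.53 and 4.21, 5.02, 9.51 and 5.46 CPM in mice 1 to 4. Eif2ak3 rested on 2 to 19 UMIs a sum, and all 4 groups overlapped.

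In mice 7 to 10, no gene of the module passed the threshold with Bch. In edgeR's quasi-likelihood test, blocked by mouse and adjusted after Benjamini-Hochberg with a threshold of 0.05, 0 of 34 members tested passed, as did 0 of all 9515 genes tested (0%), and DESeq2's Wald test also called 0 members. The genes Ern1, Eif2ak3 and Derl3 were below the filter. At an unadjusted p under 0.05 there were 3 members (8.82%), Ssr3, Hspa5 and Canx, all higher with Bch, against 3.78% of all genes tested. Of the 34, 24 had a positive and 10 a negative log2 difference, with a median of 0.10 against -0.0022 over all genes tested, of which 4714 of 9515 were positive. Per mouse the median ratio of the module was 0.25, -0.02, 0.10 and -0.02 in mice 7, 8, 9 and 10, so that mice 8 and 10 were below 0. The median was 0.05 without mouse 7 and 0.05 with technical replicate 1 alone.

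For Hspa5 the difference between the means came from mouse 7. Untreated levels of this chaperone, which also holds the sensors inactive, were 347, 408, 309.5 and 339 CPM in mice 7, 8, 9 and 10, and levels with Bch were 669, 402, 354 and 385 CPM. Bch-treated mouse 7 stood far above the other 7 sums, and among those the groups overlapped. The log2 difference was 0.32 (SE 0.15), with an unadjusted p of 0.0306 and an adjusted p of 0.999 from edgeR's quasi-likelihood test, and without mouse 7 it was 0.12. In mouse 7 the log2 ratio of Hspa5 was 0.94, yet 7.32% of the 10280 genes tested had a ratio as high or higher in that mouse, whose Bch-treated sum was the shallowest of the set at 1066102 UMIs.

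Several other members, of which Creld2 and Hyou1 were picked after their values were seen, also had their highest level or their largest ratio in mouse 7. Sdf2l1, an ER protein that works with BiP and its cochaperones, was at 118, 142, 133 and 129.6 CPM untreated and 210.3, 123, 145 and 135 CPM with Bch in mice 7, 8, 9 and 10. Creld2, a secreted isomerase-like protein, was at 75.3, 80.0, 101 and 109 and 139, 89.1, 120.2 and 98.0 CPM, and Herpud1, a membrane component of ERAD, at 135, 132, 172 and 128 and 222, 120.2, 123 and 144 CPM. For all of these the Bch-treated sum of mouse 7 was the highest of the set and the remaining sums overlapped. Dnajb9, a J-domain cochaperone of BiP that restrains IRE1, was at 9.42, 8.82, 13.2 and 8.33 CPM untreated and 20.1, 11.6, 4.54 and 9.29 CPM with Bch, and Hyou1 at 5.65, 25.8, 11.2 and 16.7 and 16.1, 20.7, 11.8 and 14.8 CPM. Mouse 7 had the highest Dnajb9 of the 8 sums and mouse 9 the lowest, both with Bch, while Hyou1 was highest in untreated mouse 8 and lowest in untreated mouse 7. Over 35 members, 28 were higher with Bch in mouse 7, against 17 in mouse 8, 21 in mouse 9 and 17 in mouse 10, where 4856, 5761, 5279 and 4722 of all 10280 genes were higher in those mice. Members that were lower with Bch in mouse 7 included the BiP cochaperones Dnajc3 at a log2 ratio of -0.06 and Dnajc10 at -0.36, and the ERAD genes Edem1 at -0.27 and Syvn1 at -0.54. The Bch-treated sum of mouse 7 was the highest of the Bch-treated set for 20 of the 35. The same count was not made over all genes, so whether it is particular to the module is not known.

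**Figure D2:**
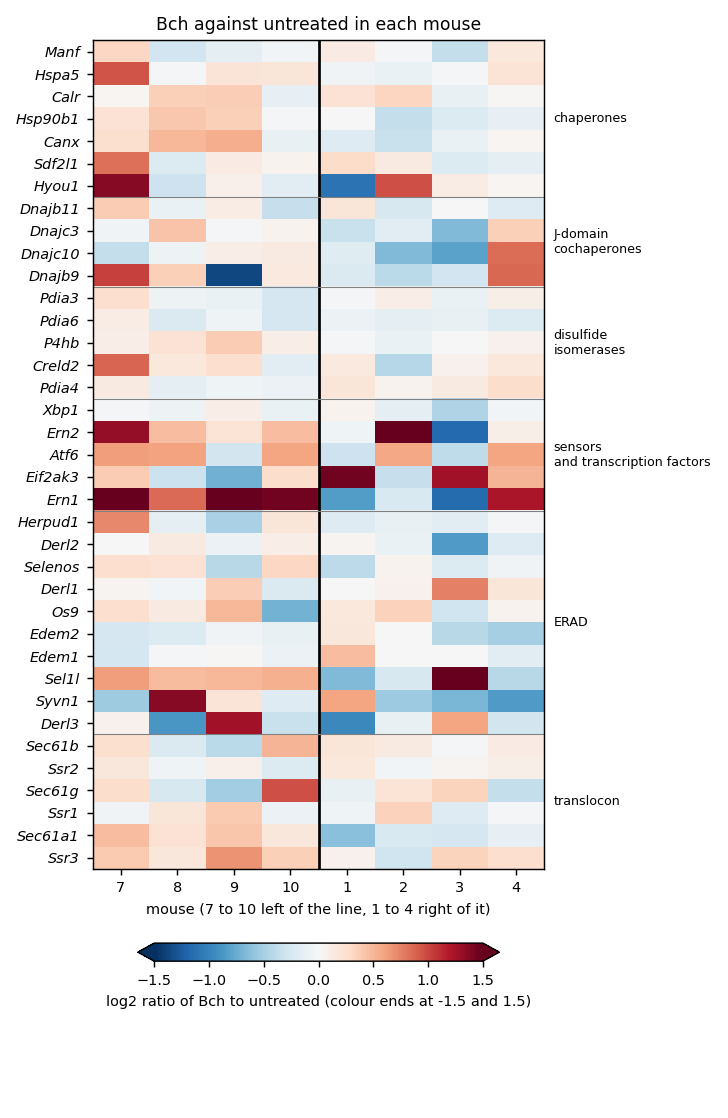
Log2 ratio of the Bch-treated to the untreated level (colour, ending at -1.5 and 1.5) for each of the 37 genes (rows, grouped by role) in each mouse (columns), with a prior count of 2. Mouse 7 is red over Hspa5, Sdf2l1, Hyou1, Dnajb9, Creld2 and Herpud1, Sec61a1 is red in mice 7 to 10 and blue in mice 1 to 4, and the strongest colours fall on the rarest genes, among them the untested Ern1 and Derl3.

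Outside the module, some lists and genes stood higher in Bch-treated mouse 7 and others did not. The summed level of 20 goblet cell markers was 10254, 6738, 9153 and 4253 CPM in untreated mice 7, 8, 9 and 10 and 15178, 6735, 6525 and 7374 CPM with Bch, so Bch-treated mouse 7 was the highest of the set. By the median log2 ratio of 19 goblet genes, 0.20, 0.14, 0.05 and 0.39, all 4 mice were above 0, and in the fit 15 of 19 were positive with a median of 0.24. Agr2, an isomerase of mucin folding in goblet cells, was at 2888, 2178, 2615 and 1446 CPM untreated and 3916, 1970.0, 1928 and 2654 CPM with Bch. Ero1l, the oxidase that recharges the isomerases, was at 50.2, 54.8, 85.9 and 54.9 and 170.0, 49.6, 51.7 and 60.4 CPM, and Bnip3, a gene known to respond to low oxygen, at 62.8, 83.8, 71.7 and 57.7 and 173, 57.3, 68.9 and 129 CPM. The 19 tested genes of the PERK and ATF4 arm had a median log2 ratio of 0.40, -0.18, -0.11 and -0.01 in mice 7, 8, 9 and 10. In mouse 7 the median was -0.14 for the other ER folding and redox genes (13 of 30 higher), -0.11 for N-glycosylation (11 of 36) and -0.30 for enteroendocrine markers (4 of 13). Agr2, Ero1l and Bnip3, which were picked after their values were seen, were all highest in Bch-treated mouse 7, and their part in the values of Hspa5 and its companions was not tested. The sort on Lgr5-EGFP is meant to leave out mature goblet cells, and in bulk RNA a larger share of cells with goblet transcripts and more of these transcripts per cell cannot be told apart.

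The lectin chaperones and GRP94 had their largest ratios in mice 8 and 9 instead. Canx (calnexin), the membrane lectin chaperone of glycoproteins, was at 126, 132, 106 and 154 CPM in untreated mice 7, 8, 9 and 10 and at 149, 187, 156 and 142 CPM with Bch, a log2 difference of 0.30 (SE 0.14) with an unadjusted p of 0.0427 and an adjusted p of 0.999 from edgeR. Without mouse 7, 8 or 9 the unadjusted p of Canx was above 0.05. Hsp90b1 (GRP94) was at 204, 233, 211 and 281 and 237, 309.7, 269.9 and 276 CPM, and Calr (calreticulin) at 254, 243, 234 and 275 and 259.6, 311, 304 and 251 CPM. Mouse 10 was lower with Bch for all of these genes and the groups overlapped. The cytosolic heat shock genes, 23 of them tested, had median log2 ratios of -0.21, 0.16, 0.26 and -0.31 in mice 7, 8, 9 and 10, so that their medians were above 0 in mice 8 and 9 only, whereas Canx, Hsp90b1 and Calr were higher with Bch in mouse 7 as well, and the part of the heat shock genes in these values was not tested.

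Tested members higher with Bch in 4 of 4 mice of this set were P4hb, Ern2, Sel1l, Sec61a1 and Ssr3, which is 5 of 34 members tested (14.7%) against 5.58% of all genes tested, and Edem2 was the only member lower in 4 of 4 (2.94% against 5.76%). The untested Ern1 was also higher in 4 of 4. Ssr3, a subunit of the translocon-associated protein complex, was at 69.7, 73.7, 49.8 and 63.6 CPM untreated and 91.6, 82.8, 80.3 and 81.5 CPM with Bch in mice 7, 8, 9 and 10. No Bch-treated sum of Ssr3 overlapped the untreated sums. Its log2 difference of 0.40 (SE 0.16) had the smallest p of the module, 0.0162 unadjusted and 0.999 adjusted in edgeR, and its unadjusted p was above 0.05 without mouse 9 and with technical replicate 1 alone, where the log2 difference was 0.27. Sel1l, the adaptor of the ERAD ubiquitin ligase Syvn1, was at 8.16, 11.3, 9.66 and 11.4 CPM untreated and 13.1, 16.1, 14.1 and 16.9 CPM with Bch, again without overlap, with a log2 difference of 0.56 (SE 0.30) and an adjusted p of 0.999 from edgeR. P4hb, the founding disulfide isomerase, differed by 0.20 (SE 0.13) on the log2 scale and Ern2 by 0.61 (SE 0.32), and the sums of Ern2 overlapped. The mannosidase-like ERAD factor Edem2 was at 65.9, 61.1, 57.9 and 50.3 CPM untreated and 55.3, 53.0, 55.8 and 46.5 CPM with Bch, a log2 difference of -0.15 (SE 0.17). Pdia6 and Edem1, the next genes on the negative side, differed by -0.11 (SE 0.14) and -0.08 (SE 0.23), and with 1 mouse left out Pdia6 ranged from -0.18 (without mouse 7) to -0.04 (without mouse 8) and Edem1 reached -0.03 (without mouse 7). Sec61a1 differed by 0.32 (SE 0.16) and Atf6 by 0.41 (SE 0.34), and, apart from these, Hspa5, Canx and the other genes whose differences are given here, the members tested lay between -0.04 (Pdia3) and 0.27 (Creld2).

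**Figure D3:**
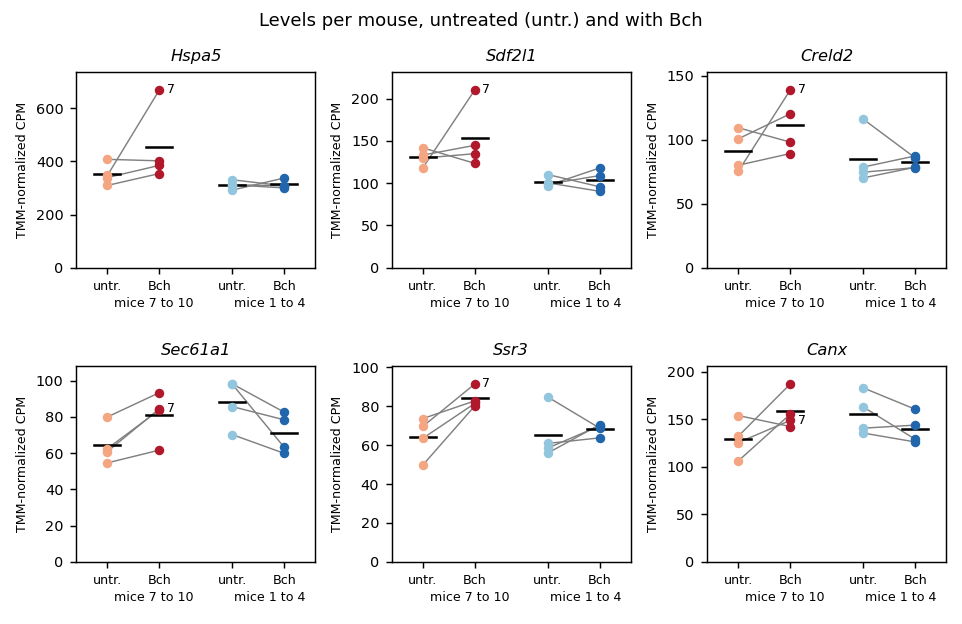
Levels of 6 members in TMM-normalized CPM, on axes from 0, with untreated (untr.) and Bch-treated sums of a mouse joined by a line, group means as black bars and mouse 7 marked. The line of mouse 7 is the steepest for Hspa5, Sdf2l1 and Creld2, while the lines of Sec61a1 point up in mice 7 to 10 and down in mice 1 to 4.

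By role, in mice 7 to 10, the median log2 difference was 0.19 for 7 chaperones (6 positive), 0.03 for 4 J-domain cochaperones (2 positive), -0.04 for 5 disulfide isomerases (2 positive), 0.41 for 3 sensors tested (2 positive), 0.04 for 9 ERAD genes (7 positive) and 0.12 for 6 translocon genes (5 positive). The median of the whole module in single mice had an SD of 0.128. This is the spread between single mice and not the error of the 0.10, which rests on all mice of the set. In the rest of the secretory pathway, 0 genes passed in edgeR in this set. Of 30 other ER folding and redox genes 15 were positive (median 0.0029), of 32 other ERAD genes 18 (0.04), of 30 genes of signal recognition, signal peptidase and translocation 14 (-0.02), of 35 N-glycosylation genes 16 (-0.01), of 43 ER to Golgi transport genes 28 (0.05) and of 19 genes of the PERK and ATF4 arm 10 (0.01).

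In mice 1 to 4, too, no gene of the module passed the threshold with Bch. Of 35 members tested, 0 passed edgeR's threshold, against 2 of all 9509 genes tested (0.021%). DESeq2 gave an adjusted p for only 8 of the 35, Hspa5, Manf, P4hb, Pdia3, Pdia6, Xbp1, Sec61b and Ssr2, and called 0 of these 8. At an unadjusted p under 0.05 there were 2 members (5.71%), Sec61a1 and Derl2, both lower with Bch, against 7.72% of all genes tested. The median log2 difference was -0.03 (15 positive and 20 negative) against 0.0012 over all genes. Hspa5 was at 311, 331, 312 and 292 CPM in untreated mice 1, 2, 3 and 4 and at 300.2, 308, 308 and 337 CPM with Bch, a log2 difference of 0.00026 (SE 0.09). All 8 sums of Hspa5 lay close together and the groups overlapped.

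The other stress-responsive genes also overlapped between untreated and Bch-treated sums. Sdf2l1 was at 97.2, 98.7, 110.1 and 100.3 CPM untreated and 118, 109, 95.6 and 90.3 CPM with Bch in mice 1, 2, 3 and 4, and Herpud1 at 191, 206, 188 and 155 and 167, 190.0, 168 and 153 CPM. Herpud1 was lower with Bch in 4 of 4 mice, by little in mouse 4. Dnajb9 was at 10.7, 14.6, 11.9 and 5.04 CPM untreated and 9.02, 10.8, 9.51 and 9.92 CPM with Bch, with mouse 4 alone higher. Hsp90b1, Pdia6, Herpud1 and Sec61a1 were lower in 4 of 4 mice (11.4% of members against 6.71% of all genes tested), and Pdia4 and Derl1 were higher in 4 of 4 (5.71% against 8.59%). None of these 6 genes passed the threshold.

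Sec61a1, the pore-forming subunit of the Sec61 channel, was at 98.1, 70.2, 98.3 and 85.7 CPM in untreated mice 1, 2, 3 and 4 and at 63.2, 59.9, 82.6 and 78.4 CPM with Bch, a log2 difference of -0.32 (SE 0.13) with an unadjusted p of 0.0213 and an adjusted p of 0.558 from edgeR, and -0.22 with an unadjusted p above 0.05 without mouse 1. Derl2, a derlin of the ERAD channel, was at 107, 123, 215 and 119.5 CPM untreated and 110.1, 115, 119 and 105 CPM with Bch, a log2 difference of -0.27 (SE 0.13) (adjusted p = 0.595, edgeR) that was -0.08 without mouse 3. Untreated mouse 3, the shallowest sum, stood alone with the highest Derl2, and the other 7 sums overlapped. The members nearest to the threshold on the positive side were Eif2ak3 at 0.66 (SE 0.49), Derl1 at 0.19 (SE 0.15) and Pdia4 at 0.15 (SE 0.13) on the log2 scale, and Hsp90b1 stood at -0.18 (SE 0.10). Eif2ak3 stood at 0.38 without mouse 1, Derl1 at 0.09 without mouse 3 and Hsp90b1 at -0.11 without mouse 2, while Pdia4 stood at 0.04 and 0.28 with technical replicate 1 or 2 alone. By role, medians were -0.02 for chaperones, -0.14 for J-domain cochaperones, -0.02 for isomerases, 0.12 for sensors, -0.15 for ERAD and 0.03 for the translocon.

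Beyond the module, the lists of the secretory pathway again held 0 genes past edgeR's threshold in mice 1 to 4. Of 42 ER to Golgi transport genes 31 were negative (median -0.09), as were 22 of 30 genes of signal recognition, signal peptidase and translocation (-0.05) and 20 of 32 other ERAD genes (-0.09). Of 22 cytosolic heat shock genes 18 were positive (0.07), led by the chaperonin subunit Cct2 at 0.36 (SE 0.10) with an adjusted p of 0.139 and Hspa8 at 0.32 (SE 0.10) with an adjusted p of 0.237 in edgeR. The ER folding and redox genes split evenly (0.01), the N-glycosylation genes had a median of 0.01 and the PERK and ATF4 arm a median of 0.06.

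The change with Bch was then compared between the sets and taken over all 8 mice. In the fit over all 8 mice, 0 of 34 members and 0 of 9366 genes passed edgeR's threshold (0%), and DESeq2 called 0 members. Ssr3 was the only member with an unadjusted p under 0.05 (2.94% of members against 5.45% of all genes tested), at 0.24 (SE 0.11) and higher in 7 of 8 mice, with an unadjusted p of 0.0308 and an adjusted p of 0.906 in edgeR. Its unadjusted p was above 0.05 without mouse 4, 7, 9 or 10, at 0.0639 in DESeq2, and at 0.226 with technical replicate 1 alone, where the log2 difference was 0.14. In mice 1, 2, 3 and 4 Ssr3 was at 60.9, 84.8, 55.9 and 58.5 CPM untreated and 63.8, 68.7, 70.6 and 70.0 CPM with Bch, where mouse 2 alone was lower. Ordered by p, Hspa5 and Calr came next on the positive side at 0.17 (SE 0.09) and 0.14 (SE 0.08), and Hspa5 stood at 0.05 without mouse 7. On the negative side the smallest p were those of Pdia6, Edem2 and Derl2, at -0.12 (SE 0.08), -0.16 (SE 0.11) and -0.11 (SE 0.09). Derl2 stood at -0.01 without mouse 3, and the median over the module was 0.05, or 0.0038 without mouse 7.

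The test of the difference itself, the interaction of set and treatment, also left 0 of 35 members and 0 of 10280 genes past edgeR's threshold (0%), with 0 members called by DESeq2. At an unadjusted p under 0.05 there were 3 members (8.57%), all with the more positive change in mice 7 to 10, against 4.39% of all genes tested. Sec61a1 led them. In mice 7, 8, 9 and 10 its level was 60.9, 80.0, 62.5 and 54.6 CPM untreated and 84.5, 93.4, 83.9 and 61.7 CPM with Bch, so it was higher in 4 of 4 mice of this set and, as given above, lower in 4 of 4 mice of the other. The difference between the sets was 0.64 (SE 0.20) on the log2 scale, with an unadjusted p of 0.00282 and an adjusted p of 1 from edgeR. Canx differed by 0.45 (SE 0.18) with an unadjusted p of 0.0131 and Hsp90b1 by 0.42 (SE 0.16) with 0.0134, both with an adjusted p of 1 in edgeR. In untreated mice 7 to 10 against untreated mice 1 to 4, Sec61a1 stood at -0.46, Canx at -0.28 and Hsp90b1 at 0.19. That comparison uses the same untreated sums, so it and the difference between the sets are not separate results. On the negative side Eif2ak3 stood at -0.83 (SE 0.69), Pdia4 at -0.20 (SE 0.19) and Derl1 at -0.16 (SE 0.22), of which Eif2ak3 ranged from -1.39 to -0.51 and Derl1 from -0.26 to -0.03 with 1 mouse left out. The median over the module was 0.15 (26 positive and 9 negative) against -0.0016 over all genes, of which 5115 of 10280 were positive. In the same test the median was 0.23 for goblet markers (13 of 19 positive), 0.21 for dissociation genes (10 of 14), 0.14 for ER to Golgi transport (31 of 43) and 0.11 for other ERAD genes (21 of 33). Lgr5, the gene behind the sort marker, was at 25.7, 18.3, 20.8 and 12.7 CPM in untreated mice 7, 8, 9 and 10 and 26.2, 31.5, 28.6 and 19.4 CPM with Bch, and at 36.3, 39.1, 33.9 and 28.7 CPM in untreated mice 1, 2, 3 and 4 and 18.0, 16.2, 26.5 and 29.3 CPM with Bch. It was higher in 4 of 4 mice of the first set and in 1 of 4 of the second, with a difference between the sets of 1.15 (SE 0.32), an unadjusted p of 0.000986 and an adjusted p of 1 from edgeR. Between the same untreated sums Lgr5 stood at -0.87 (SE 0.24). The part of these genes in the values of the module was not tested.

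Members with an ERSE or ERSE-II in the promoter were set beside the other members with a promoter sequence, as a description. In mice 7 to 10 the 10 tested holders had a median log2 difference with Bch of 0.20, with 8 positive, and the 17 without either element a median of 0.04, with 11 positive. In mice 1 to 4 the medians were -0.14 for the holders, of which 2 were positive, and -0.0039 for 18 others, of which 9 were positive. The difference between the sets was positive for 10 of 10 holders, with a median of 0.30, and for 12 of 18 others, with a median of 0.11. Of all 10280 genes tested, 5115 were positive. The holders were all read in the same 8 mice, so their signs are not independent of each other, and the part of the element was not tested. Per mouse, the median ratio of the holders was 0.23, 0.25, 0.19 and -0.12 in mice 7, 8, 9 and 10 and -0.03, -0.20, -0.11 and -0.00063 in mice 1, 2, 3 and 4. Mouse 10 was below 0 in the first set, and all 4 mice of the second set were at or below 0.

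**Figure D4:**
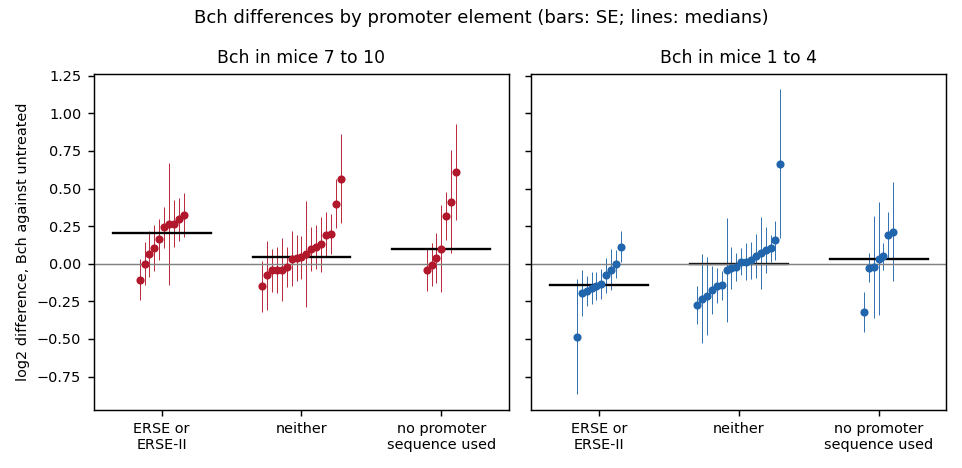
Log2 difference of Bch-treated against untreated cells for each tested member in mice 7 to 10 (left) and mice 1 to 4 (right), split by whether the promoter held ERSE or ERSE-II, held neither, or was not used here, with SE bars and the median of each group as a line. The holders' median lies above 0 on the left and below 0 on the right, and the points of the groups overlap in both panels.

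More genes passed the threshold between the untreated cells of the sets than with Bch in either set, and in the module they were subunits of the translocon. Of 34 members tested, 2 passed edgeR's threshold (5.88%), both higher in mice 7 to 10, against 1.64% of 9159 genes tested. They were Sec61g and Sec61b, the small subunits of the Sec61 channel. At an unadjusted p under 0.05 there were 10 members (29.4%), 6 higher and 4 lower in mice 7 to 10, against 12.7% of all genes tested. The median over the module was 0.17 against -0.02 over all genes. The summed level of the module was 6208, 6219, 6211 and 6271 CPM in untreated mice 7, 8, 9 and 10 and 5433, 5428, 5503 and 4894 CPM in untreated mice 1, 2, 3 and 4, without overlap.

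Sec61g, on chromosome 11 from 16500530 to 16508484 of the GRCm38 annotation, was at 167, 127, 158 and 109 CPM in untreated mice 7, 8, 9 and 10 and at 93.0, 64.9, 55.9 and 80.7 CPM in untreated mice 1, 2, 3 and 4. Every sum of the first set was above every sum of the second. The log2 difference was 0.88 (SE 0.16), with an adjusted p of 0.00206 from edgeR and of 0.000541 from DESeq2. Sec61b, on chromosome 4 from 47474658 to 47483242, was at 829, 767, 798 and 645 CPM and 548, 447, 466 and 462 CPM, again without overlap, with a log2 difference of 0.65 (SE 0.12) and an adjusted p of 0.00238 from edgeR and of 0.0001 from DESeq2. Both stayed past the threshold when any 1 of the 8 mice was left out. With Bch, Sec61g was at 200.2, 107, 109.8 and 214 CPM in mice 7 to 10 and 86.0, 74.9, 70.6 and 62.5 CPM in mice 1 to 4, without overlap. Sec61b with Bch was at 975, 661, 605 and 921 CPM and 623, 493, 461 and 504 CPM, where mouse 9 lay below mouse 1 and the sets overlapped. Of the 65-base words at the 3′ end of Sec61b, 34.6% are also found in Gm10320, Gm33666 and Gm5870, so its count may be split with these copies.

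Both genes have short coding sequences, their longest annotated one being of 300 and 421 bases, and short genes as a class stood higher in the same comparison. Of 694 tested genes with at most 450 coding bases, 78.7% were higher in untreated mice 7 to 10, with a median log2 difference of 0.18, and 30 passed edgeR's threshold as higher and 3 as lower. Without ribosomal protein and mitochondrially encoded genes, 652 genes had a median of 0.18. Within mice 7 to 10, Sec61g had log2 ratios of Bch to untreated of 0.26, -0.24, -0.52 and 0.97 in mice 7, 8, 9 and 10 and Sec61b of 0.23, -0.21, -0.40 and 0.51, where 674 short genes had medians of -0.08, -0.10, -0.20 and 0.17. The order of the mice was the same for both genes, with mouse 10 highest and mouse 9 lowest, and the part of transcript length in these values was not tested. Elsewhere in the secretory pathway, Ost4, a subunit of the oligosaccharyltransferase, at 0.64 (SE 0.12) with an adjusted p of 0.00196 in edgeR, Kdelr3, a receptor that returns chaperones from the Golgi, at 0.97 (SE 0.23) and 0.0214, and Fkbp11, a prolyl isomerase, at 1.25 (SE 0.26) and 0.00798, passed as higher in untreated mice 7 to 10. Each was the only gene past the threshold in its list, of 35 N-glycosylation, 42 ER to Golgi transport and 30 other ER folding and redox genes. Of 33 other ERAD genes 0 passed and 22 were lower, and of 30 genes of signal recognition, signal peptidase and translocation 0 passed. Over all 9159 genes tested, 1.64% passed.

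**Figure D5:**
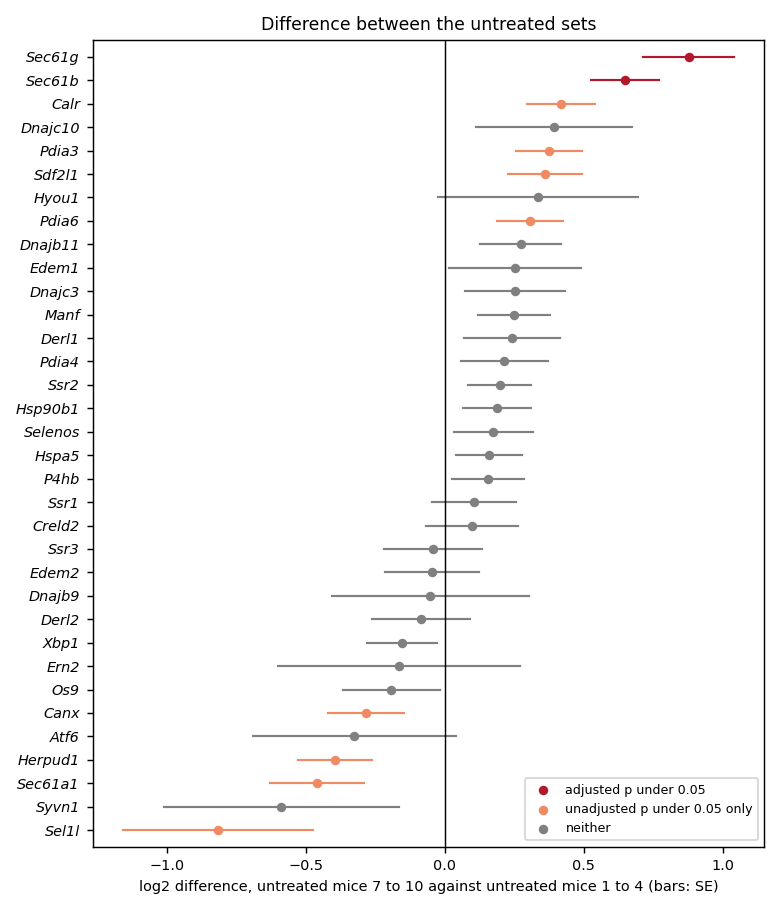
Log2 difference of untreated mice 7 to 10 against untreated mice 1 to 4 for the 34 tested members, ordered by size, with SE bars and colour by the adjusted and unadjusted p of edgeR's test. Sec61g and Sec61b are set apart at the top, most folding enzymes lie to the right of 0, and ERAD genes and sensors make up most of the left side.

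The next members were folding enzymes with the higher level in mice 7 to 10. Calr was at 254, 243, 234 and 275 CPM in untreated mice 7, 8, 9 and 10 and at 178, 167, 212 and 196 CPM in untreated mice 1, 2, 3 and 4, a log2 difference of 0.42 (SE 0.12) with an adjusted p of 0.0793 from edgeR. Pdia3, its partner in the folding of glycoproteins, was at 675, 774, 859 and 896 CPM and 622, 663, 599.8 and 562 CPM, a difference of 0.38 (SE 0.12) with an adjusted p of 0.116. Neither passed the threshold, and for both the sets did not overlap. Sdf2l1 and Ssr2 also did not overlap, which made 6 of 34 members (17.6%) with Calr, Pdia3, Sec61b and Sec61g, against 4.55% of all genes tested. In the opposite direction 0 members were free of overlap, against 3.43% of all genes, where edgeR's test gave 4 members an unadjusted p under 0.05 and neither edgeR nor DESeq2 called any.

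The 4 members lower in mice 7 to 10 at an unadjusted p under 0.05 were Herpud1 and Sel1l of ERAD, Sec61a1 and Canx. Herpud1 was at 135, 132, 172 and 128 CPM in untreated mice 7, 8, 9 and 10 and at 191, 206, 188 and 155 CPM in untreated mice 1, 2, 3 and 4, a log2 difference of -0.40 (SE 0.13) with an adjusted p of 0.155 in edgeR. Untreated mouse 9 overlapped the second set and the other 3 mice did not. Sec61a1 stood at -0.46 (SE 0.17), Sel1l, with 1 UMI in untreated mouse 3, at -0.82 (SE 0.34) and Canx at -0.28 (SE 0.14), none of them past the threshold. Thus the pore subunit Sec61a1 had the opposite sign to the small subunits Sec61b and Sec61g. By role, the medians were 0.25 for chaperones, 0.26 for J-domain cochaperones, 0.21 for isomerases, 0.15 for the translocon, -0.08 for ERAD and -0.16 for the sensors.

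PERK itself (Eif2ak3) is in the module and was below the filter between the untreated sets. The list of other genes of the PERK and ATF4 arm, which is not part of the module, differed in the other direction. Of its 19 tested genes 15 were lower in untreated mice 7 to 10, 7 of them past edgeR's threshold, and 0 passed as higher, with a median log2 difference of -0.47. Asns, the asparagine synthetase that ATF4 induces, was at 87.3, 142, 128 and 147 CPM in untreated mice 7, 8, 9 and 10 and at 355, 355, 269 and 321 CPM in untreated mice 1, 2, 3 and 4, a log2 difference of -1.38 (SE 0.14) with an adjusted p of 1.33e-07 from edgeR. Trib3, a pseudokinase in the same arm, was at 23.9, 36.5, 26.4 and 21.9 CPM and 82.7, 88.8, 59.3 and 99.3 CPM, a difference of -1.66 (SE 0.20) with an adjusted p of 2.52e-06. For both the sets were far apart. Amino acid shortage is also known to raise these ATF4 targets, and the counts do not tell the inputs to ATF4 apart.

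Cell type markers differed between the same untreated sums. The stem cell list had a median log2 difference of -0.37 (2 of 13 tested genes positive, 2 passing as lower in edgeR), the colonocyte list a median of 0.72 (13 of 14 positive, 4 passing as higher) and the goblet list a median of 0.33 (14 of 17 positive, 0 passing, and 5 higher and 1 lower at an unadjusted p under 0.05). The enteroendocrine list had a median of 0.49 (10 of 12 positive, 0 passing, and 3 higher at an unadjusted p under 0.05). Lgr5 was at 25.7, 18.3, 20.8 and 12.7 CPM in untreated mice 7, 8, 9 and 10 and at 36.3, 39.1, 33.9 and 28.7 CPM in untreated mice 1, 2, 3 and 4, so that the sets did not overlap. Xist, which is transcribed from the inactive X chromosome, passed as higher in mice 7 to 10. The difference was 2.41 (SE 0.42) with an adjusted p of 0.0252 in edgeR. Untreated levels of Xist were 44.7 to 162 CPM in mice 7 to 10 and still 13.6 to 24.5 CPM in mice 1 to 4, labelled male. The Y chromosome gene Eif2s3y passed as lower in mice 7 to 10. Ddx3y, also on the Y chromosome, was at 0.630 to 3.09 CPM in untreated mice 7 to 10. In untreated mice 1 to 4 it was at 4.18 to 15.2 CPM. With Bch, mouse 7 held 5.03 CPM of Ddx3y, above the 4.01 CPM of mouse 3. The source of these counts was not tested. The part of the marker genes in the higher levels of Calr, Pdia3, Sec61b and Sec61g was not tested, and a different mix of cells and a different level per cell cannot be told apart in these sums.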

How the data were processed

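RNA of sorted Lgr5-EGFP+ cells was measured as 3′ UMI counts. The authors deposited raw counts per gene for 32 libraries, aligned and counted with the Drop-seq pipeline against the mouse genome GRCm38 with GENCODE M25 annotation according to the methods, although the submitters' processing notes name GRCh 38. The handling of strand and of reads with several matches is not given in the sources used here. A blank for 1520 genes in technical replicate 2, which held at most 12 UMIs in technical replicate 1, was read as 0. Technical replicates were summed to 16 samples of 557512 to 4050342 UMIs.

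The module and all gene lists were chosen with earlier results of these data known. Counts were filtered with filterByExpr, normalized by TMM and fitted across all genes with edgeR 4.0.16 (robust quasi-likelihood F test, limma 3.58.1, R 4.3.3), with the mouse as a block in the comparisons with Bch and Benjamini-Hochberg adjustment over all genes tested at a threshold of 0.05. The fits were tested on simulated data. Blocks rest on the same mouse giving both samples. The correlation of the deviations of both samples of a mouse was 0.0715, 0.151, 0.0034 and -0.0202 in mice 7, 8, 9 and 10, and 0.245, 0.0329, 0.0618 and 0.0840 in mice 1, 2, 3 and 4. Ratios per mouse used a prior count of 2. The limit given for a gene at 0 is 3 UMIs of the total and covers counting error only. For each comparison, members past the threshold were named, then the 3 with the smallest p in each direction, and levels in every sample were fixed for Hspa5, Xbp1, Dnajb9, Herpud1, Sdf2l1, Ern1, Ern2, Eif2ak3 and Atf6. Other members, such as Creld2, Hyou1, P4hb and Sel1l, and genes outside the module were named after their values were seen.

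The alternatives were DESeq2 1.42.0 (Wald test), its size factors, no filter on low counts, CPM of the plain library total, either technical replicate alone, removal of mitochondrial and ribosomal protein genes, no block, and leaving out each mouse. Promoters of 300 bases, from 250 before to 50 after the start, came from RefSeq (GRCm38.p6). Protein sequences were not used here.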

Additional observations from a re-analysis of the deposited data

Results flagged for a closer look

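Outlying values were sought in 191 groups of 4 values, the levels and the ratios per mouse of members with a mean of at least 20 UMIs per sum. Dixon's test at its 95% critical value marked 9 of them, where chance marks about 1 in 20 groups. Hspa5 in Bch-treated mouse 7 was at 669 CPM while the other Bch-treated sums of its set were at 354, 385 and 402 CPM. Among levels, Herpud1 in untreated mouse 9 was at 172 CPM beside 128, 132 and 135 CPM, Derl2 in untreated mouse 3 at 215 CPM beside 107, 119.5 and 123 CPM, and Ssr2 in Bch-treated mouse 1 at 708 CPM beside 558, 561 and 564 CPM.

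Among log2 ratios of Bch to untreated, Dnajb9 in mouse 4 was at 0.86 beside -0.40, -0.29 and -0.22 in mice of the same set, and Creld2 in mouse 2 at -0.43 beside 0.07, 0.15 and 0.16. In the other set, mouse 9 was marked for Atf6 at -0.27, beside 0.59, 0.61 and 0.62, and for Selenos at -0.41, beside 0.22, 0.26 and 0.31. Sel1l in mouse 3 was at 2.10 beside -0.66, -0.42 and -0.24, where the untreated sum of mouse 3 held 1 UMI of Sel1l.

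The change of Sec61a1 with Bch differed between the sets by 0.64 on the log2 scale, because it was higher in 4 of 4 mice of the one and lower in 4 of 4 mice of the other, and the adjusted p of that difference was 1 in edgeR's test.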

How the results depend on the processing

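The number of members past the threshold stayed at 0 in every comparison with Bch under every alternative run, and at 2 between the untreated sets except with technical replicate 2 alone, where Calr joined Sec61b and Sec61g (log2 difference 0.50, adjusted p = 0.0265 in edgeR's test). Leaving out each mouse in turn moved the median log2 difference of the module between 0.05 and 0.15 in mice 7 to 10, between -0.07 and -0.01 in mice 1 to 4, between 0.0038 and 0.05 over all 8 mice, between 0.09 and 0.20 for the difference between the sets, and between 0.12 and 0.19 for the untreated sets. The lowest value in mice 7 to 10 and over all 8 mice was the one without mouse 7. Without the mouse as a block the paired comparisons gave medians of 0.10, -0.04, 0.04 and 0.15 in the order above, and 0 of all genes passed in mice 1 to 4, where 2 passed with the block. For the members named in each comparison, no call at the adjusted threshold changed without the block. Unadjusted p are not covered by this. The median in mice 7 to 10 was 0.05 with technical replicate 1 alone, and that in mice 1 to 4 was -0.0047 with no filter on low counts.

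Counts over all genes depended more on the setting. In mice 1 to 4, 14 genes passed in DESeq2, 88 with no filter on low counts, 4 without mitochondrial and ribosomal protein genes, 9 and 3 with technical replicate 1 or 2 alone, and up to 19 with a mouse left out. With no filter, 15 genes passed over all 8 mice, 1 for the difference between the sets and 234 between the untreated sets. Without mouse 2, 74 genes passed between the untreated sets and without mouse 10, 210 did, against 150 with all mice. The cause was not tested. Across 148 levels, 1 moved by more than the SD between mice with CPM of the plain library total, that of Edem2 in untreated mice 1 to 4, from 60.0 to 62.3 CPM. DESeq2 gave no adjusted p for 27 of the 35 members tested in mice 1 to 4, so its 0 there covers the other 8. Depth limits Derl3, Ern1 and Eif2ak3 most, which hold few UMIs in each sum.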
